A study of Thermochaetoides thermophila with 9 samples.

Results

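Xylose reductase (XR, CTHT_0056950), xylitol dehydrogenase (XDH, CTHT_0073860) and xylulose kinase (XK, CTHT_0022560) are the 3 successive enzymes with which the thermophilic fungus Chaetomium thermophilum (listed as Thermochaetoides thermophila) turns xylose into a sugar phosphate. Their genes were found in the deposited count table by locus tag, the names being those of the study, and are 3 of the 7785 genes listed there. All 3 passed the filter on low counts, as did 6904 genes in all. Cultures of wild-type mycelium, 9 in all, were grown at 50 °C and kept without sugar for 48 h, and then spent 6 h with 1% (w/v) xylose (3 cultures), 1% (w/v) glucose (3 cultures) or no sugar (3 cultures, the reference). The temperature and the length of the depletion follow the sample labels, from which parts of the study's text differ. For the reference, a figure caption of the study gives the final 6 h without sugar. Its methods name that time only for the cultures given a sugar. The labels call the cultures biological replicates, and no label says that a culture of one condition belongs with a culture of another. Sequencing of mRNA gave between 38806913 and 52229013 reads per library on genes, of which the 26S rRNA gene took between 7.36% and 32.0%. Levels are given as CPM, read counts relative to the library size after TMM scaling. These are averages over whole mycelium, in which less transcript per cell and a different make-up of the mycelium cannot be told apart.

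In filamentous fungi, xylose is first reduced to xylitol by XR, which mostly takes its electrons from NADPH. XDH then oxidizes xylitol to xylulose with NAD+, and XK phosphorylates xylulose with ATP, which brings it into the pentose phosphate pathway. There it meets carbon from glucose, which enters through the oxidative branch, the branch that also makes NADPH. The genes for this route are known in fungi such as Aspergillus and Trichoderma to be induced by xylose through the activator XlnR and to be held down on glucose by carbon catabolite repression, in which the repressor CreA, related to yeast Mig1, takes part.

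All 3 genes had more transcript in xylose than in either other condition, but in the other conditions they parted. XR was lowest without sugar, XDH was lowest in glucose, and XK was low in both. XR had 1766, 1161 and 1988 CPM in xylose libraries 1 to 3, against 137, 181 and 177 CPM in glucose libraries 1 to 3 and 7.41, 14.6 and 6.83 CPM in reference libraries 1 to 3. The levels of XR thus lay in 3 bands, xylose above glucose above reference, and no library of a band reached the next. Reference library 2 had about as much XR transcript as the other two reference libraries together.

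XDH had 633, 319 and 493 CPM in the xylose libraries, against 15.0, 13.2 and 13.9 CPM in the glucose libraries and 181, 200 and 167 CPM in the reference libraries. The order of its bands was xylose above reference above glucose, again without overlap. The glucose libraries lay closest together, with a highest value 1.14 times the lowest, and the xylose libraries furthest apart, with 1.98 times. XK had 280, 543 and 444 CPM in the xylose libraries, against 39.5, 34.0 and 47.7 CPM in the glucose libraries and 60.6, 65.1 and 40.4 CPM in the reference libraries. For XK only the xylose libraries stood apart, since reference library 3 lay within the range of the glucose libraries. The spread among the xylose libraries did not run the same way for the 3 genes: library 2 was the lowest of them for XR and XDH and the highest for XK.

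**Figure D1:**
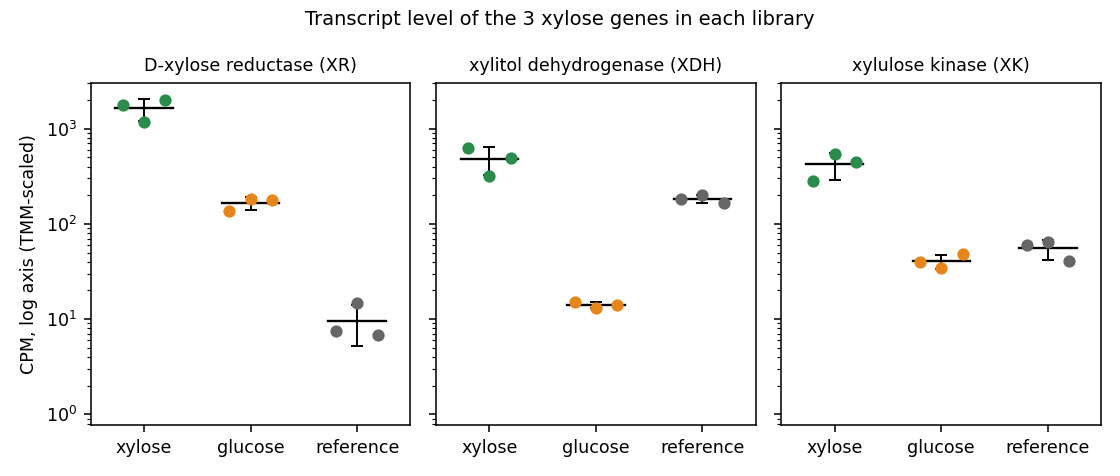
Transcript level of XR, XDH and XK in each library, in CPM on a log axis, with points for single libraries and a line and bars for the mean and SD of 3 libraries. Every xylose library lies above every glucose and reference library for all 3 genes, while XR is lowest in the reference (6.83 to 14.6 CPM) and XDH is lowest in glucose (13.2 to 15.0 CPM).

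The reads behind these values were many. XR was counted with 99930, 53482 and 101189 reads in the xylose libraries, and with 7346, 8597 and 4861 reads in the glucose libraries and 382, 680 and 286 reads in the reference libraries. The fewest reads of XDH were 383, in glucose library 3, and the fewest of XK were 1311, in the same library. A count of 0, which allows up to 3 reads, would correspond to between 0.0530 and 0.109 CPM, so that none of the 3 genes came near the limit of detection in any library. XR alone took between 0.117% and 0.221% of all counted reads in the xylose libraries, against 0.0125% to 0.0177% in the glucose libraries and 0.000663% to 0.00139% in the reference libraries.

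Among all genes listed, XR moved further through the ranks than XDH or XK. Its mean level was at percentile 98.7 in xylose, against percentile 88.7 in glucose and percentile 35.6 in the reference. XDH was at percentile 96.3 in xylose, against percentile 42.1 in glucose and percentile 90.0 in the reference. XK was at percentile 95.7 in xylose, against percentile 64.8 in glucose and percentile 71.0 in the reference. To set the genes beside each other, levels were divided by the length of the gene from its start to its end, introns included, as RefSeq gives it for assembly CTHT_3.0 (1490 bp for XR, 1245 bp for XDH and 1876 bp for XK). Per kb, the level of XR in xylose was 1099 ± 287 CPM (SD, n = 3 libraries), that of XDH was 387 ± 126 and that of XK was 225 ± 70.8. In glucose the levels per kb were 111 ± 16.2 CPM for XR, 11.3 ± 0.749 for XDH and 21.5 ± 3.67 for XK (SD, n = 3). In the reference they were 6.46 ± 2.92 CPM for XR, 147 ± 13.1 for XDH and 29.5 ± 7.01 for XK (SD, n = 3). XR thus had the highest level per kb of the 3 genes in both sugars and the lowest without sugar.

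The first comparison asks which transcripts changed in mycelium given xylose relative to mycelium left without sugar. All 3 genes rose, in a comparison in which 64.6% of the genes tested were called, 32.3% higher and 32.4% lower. The log2-fold change was 7.41 for XR (95% interval 6.27 to 8.55, adjusted p = 3.24e-06, edgeR quasi-likelihood test with p-values adjusted over all genes tested), which is 170-fold. This was the third largest increase of all genes tested. XK rose by 2.93 (95% interval 2.20 to 3.66, 7.62-fold, adjusted p = 2.76e-05, edgeR) and XDH by 1.40 (95% interval 0.75 to 2.05, 2.64-fold, adjusted p = 0.00163, edgeR). The xylose libraries lay above the reference libraries without overlap for each gene, as they did for 33.2% of the genes tested. The median change of all genes tested was -0.05. XDH, with the smallest increase, already had a level of 167 to 200 CPM in the reference.

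Glucose relative to no sugar asks what a sugar that does not pass through these enzymes did to their transcripts. Here 49.5% of the genes tested were called, 24.0% higher and 25.4% lower, and the 3 genes differed in direction. XR rose by 4.10 on the log2 scale (95% interval 3.13 to 5.07, 17.2-fold, adjusted p = 7.53e-05, edgeR). XDH changed by -3.70 (95% interval -4.41 to -2.99, adjusted p = 2.37e-05, edgeR), to 0.0770 times its reference level. XK did not pass the test, with -0.45 (95% interval -1.14 to 0.23, adjusted p = 0.247, edgeR). Glucose libraries lay above reference libraries without overlap for 29.7% of the genes tested, as for XR, and below them for 30.5%, as for XDH.

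Xylose relative to glucose sets the sugars against each other. All 3 genes were higher in xylose, in a comparison in which 50.8% of the genes tested were called, 28.2% higher and 22.6% lower. The log2 difference was 5.10 for XDH (95% interval 4.34 to 5.86, 34.3-fold, adjusted p = 2.31e-05, edgeR), 3.38 for XK (95% interval 2.64 to 4.13, 10.4-fold, adjusted p = 5.97e-05, edgeR) and 3.31 for XR (95% interval 2.37 to 4.25, 9.92-fold, adjusted p = 0.000148, edgeR). The ranges did not overlap for any of them, as for 35.6% of the genes tested, and the median difference of all genes was 0.16. The largest difference between the sugars belonged to the gene with the smallest increase over the reference. The comparisons share libraries, so that a low value of XDH in glucose enters both the fall against the reference and the difference between the sugars.

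**Figure D2:**
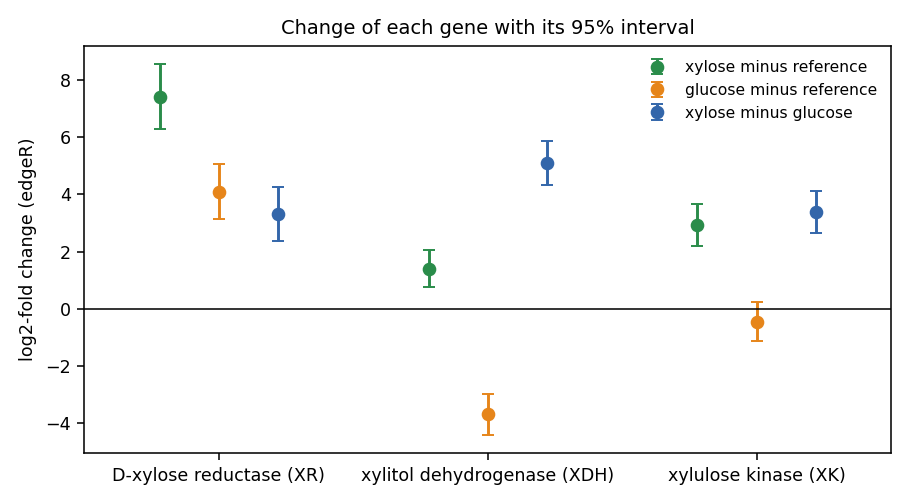
Log2-fold change of XR, XDH and XK in the 3 comparisons, with the 95% interval of the edgeR fit. XR lies above 0 in all 3 comparisons, XDH falls below it for glucose minus reference (-3.70), and the interval of XK for the same comparison spans 0 (-1.14 to 0.23).

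Because a ratio of 2 genes within a library does not depend on how libraries are scaled to each other, the balance of the 3 transcripts was followed library by library. These ratios are of read counts and not per length, so that only their differences between conditions carry meaning. XDH over XR was 0.359, 0.275 and 0.248 in the xylose libraries, against 0.110, 0.0729 and 0.0789 in the glucose libraries and 24.4, 13.6 and 24.5 in the reference libraries. The 3 conditions did not overlap, and XDH reads outnumbered XR reads in the reference alone. The log2 ratio differed between the conditions (exact permutation test over all assignments of the 9 libraries, p = 0.00357, the smallest p possible, adjusted p = 0.00536 over 3 ratios). The difference of its means on the log2 scale was -6.11 for xylose minus reference, -7.87 for glucose minus reference and 1.76 for xylose minus glucose.

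XK over XR was 0.159, 0.468 and 0.223 in the xylose libraries, against 0.288, 0.188 and 0.270 in the glucose libraries and 8.16, 4.45 and 5.91 in the reference libraries. The ranges of the sugars overlapped, and both lay far below the reference. The ratio differed between the conditions (exact permutation test, 9 libraries, p = 0.0357, adjusted p = 0.0357), by -4.55 on the log2 scale for xylose minus reference and by -4.61 for glucose minus reference. Xylose minus glucose was 0.06 (exact permutation test, n = 3 libraries each, p = 1), and this small value changed sign without xylose library 2 (-0.38) or without glucose library 2 (-0.13). Relative to glucose, XR and XK thus differed in xylose by amounts that the spread of the libraries does not separate.

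XK over XDH was 0.442, 1.70 and 0.899 in the xylose libraries, against 2.63, 2.58 and 3.42 in the glucose libraries and 0.335, 0.326 and 0.241 in the reference libraries. The conditions did not overlap, but the xylose libraries spread widest, with library 2 the highest. The exact permutation test gave p = 0.00357 for 9 libraries (adjusted p = 0.00536). The log2 differences were 1.56 for xylose minus reference, 3.26 for glucose minus reference and -1.70 for xylose minus glucose. For any single pair of conditions, 3 libraries against 3 cannot give a p below 0.10, which was the value for all pairs with ratios that did not overlap (exact permutation test, adjusted p = 0.113).

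**Figure D3:**
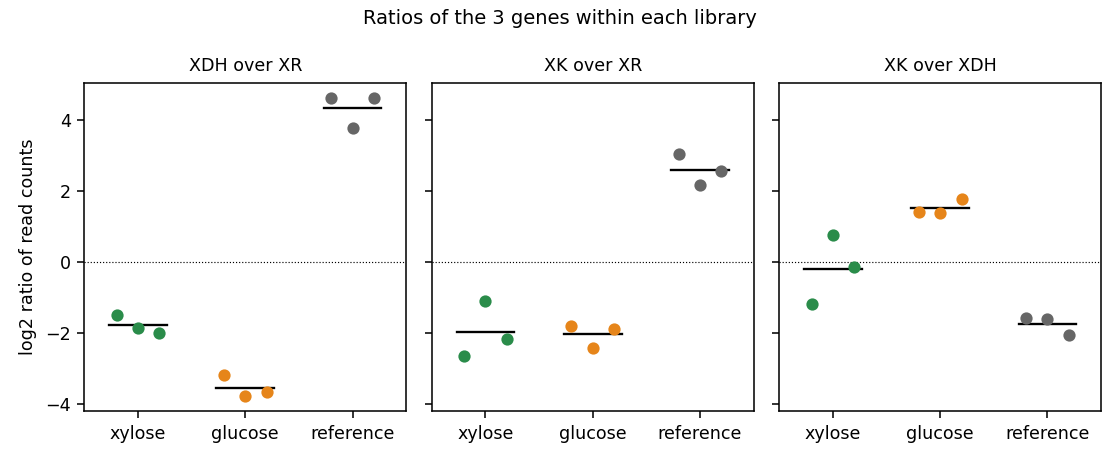
Log2 ratio of the read counts of 2 genes within each library, with points for libraries and lines for the mean of 3 libraries. XDH over XR and XK over XDH separate all 3 conditions, while for XK over XR the sugars overlap (linear ratios of 0.159 to 0.468 in xylose and 0.188 to 0.288 in glucose) below the reference (4.45 to 8.16).

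Xylulose phosphate made by XK is taken up by the pentose phosphate pathway, and 7 of its genes were followed in the same edgeR fit. The 17 related genes described here were found by name in annotation tables. For 9 of them the table listed genes already known to change in these libraries, so that a call among them is in part how they were found, and for 8 it listed genes by level. The list for the non-oxidative branch, which rearranges pentose phosphates into intermediates of glycolysis, held transketolase, ribulose-phosphate epimerase, transaldolase and, beside these, a phosphoketolase-like gene, whose kind of enzyme splits xylulose phosphate outside the rearrangements. Of these 4 genes, 3 were called higher for xylose minus reference (32.3% of all genes tested), 4 for glucose minus reference (24.0% of all genes) and 2 for xylose minus glucose (28.2% of all genes). The gene not called for xylose minus reference and the 1 gene called lower for xylose minus glucose (22.6% of all genes) were the phosphoketolase-like gene. The median log2-fold changes over all 4 genes were 3.08, 2.30 and 0.91 in the same order of comparisons, beside -0.05, -0.05 and 0.16 for all genes tested. Transketolase (CTHT_0066780), which moves a piece of xylulose phosphate to other sugar phosphates, had 2032, 2248 and 3167 CPM in the xylose libraries, against 420, 368 and 419 CPM in the glucose libraries and 61.7, 131 and 49.1 CPM in the reference libraries. Its bands had the order of those of XR, xylose above glucose above reference, without overlap. The log2-fold change was 4.94 for xylose minus reference (adjusted p = 1.52e-05, edgeR), 2.32 for glucose minus reference (adjusted p = 0.00197, edgeR) and 2.63 for xylose minus glucose (adjusted p = 0.000782, edgeR).

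Ribulose-phosphate epimerase (CTHT_0003090), which interconverts ribulose phosphate and xylulose phosphate, had 123, 173 and 187 CPM in the xylose libraries, against 38.0, 30.9 and 62.9 CPM in the glucose libraries and 2.54, 16.1 and 1.93 CPM in the reference libraries. Reference library 2, the highest reference library for XR and transketolase, was again the highest here. The epimerase rose by 4.55 in xylose and by 2.68 in glucose relative to the reference (adjusted p = 0.000305 and 0.00805, edgeR), and without reference library 2 by 6.06 and 4.30. Its difference between xylose and glucose, 1.87 (adjusted p = 0.0349, edgeR), did not pass the test without any one of xylose libraries 1 (1.91), 2 (1.82) and 3 (1.76) or of glucose libraries 1 (1.63) and 2 (1.67), nor with TMM scaled to xylose library 3 (1.72) or 1 (1.71) or a minimum of 10 counts in each library (1.70). Transaldolase (CTHT_0013420), the other enzyme of the rearrangements, rose by 1.61 in xylose and by 1.65 in glucose relative to the reference (adjusted p = 0.0149 and 0.0187, edgeR). Neither call held without reference library 1 (1.39 in xylose and 1.44 in glucose) or reference library 3 (1.41 and 1.45), nor did that of glucose without glucose library 3 (1.46). Xylose minus glucose was -0.04 for transaldolase (95% interval -1.12 to 1.03), and the sign changed with the scaling by total counts (0.15).

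The phosphoketolase-like gene (CTHT_0017250) had the opposite order in the sugars. It had 214, 2407 and 680.0 CPM in the xylose libraries, against 8214, 18679 and 19766 CPM in the glucose libraries and 3566, 2119.6 and 3926 CPM in the reference libraries. Xylose library 2 had 11.2 times the level of xylose library 1. Xylose minus glucose was -3.82 (adjusted p = 0.00424, edgeR), and -5.12 without xylose library 2. Xylose minus reference was -1.54 and did not pass the test (adjusted p = 0.115, edgeR), whereas it was -2.83 without xylose library 2 (adjusted p = 0.0102, edgeR) and passed in the DESeq2 Wald test (-1.55). Glucose minus reference was 2.28 (adjusted p = 0.0404, edgeR), a call that did not hold without glucose library 2 (2.13) or 3 (2.07) or reference library 1 (2.36), 2 (2.07) or 3 (2.45), or under the replicate block (adjusted p = 0.0642, edgeR).

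The oxidative branch makes NADPH, the usual cofactor of XR. All 3 of its genes were called higher for xylose minus reference and for xylose minus glucose, as were 32.3% and 28.2% of all genes tested, with median log2-fold changes of 2.78 and 1.64. For glucose minus reference 1 of 3 was called higher, a share near the 24.0% of all genes, with a median of 0.67. Glucose-phosphate dehydrogenase (CTHT_0057650), the first enzyme of the branch, had 445, 234 and 544 CPM in the xylose libraries, against 155, 151 and 189 CPM in the glucose libraries and 45.4, 70.6 and 56.3 CPM in the reference libraries. It rose by 2.83 in xylose and by 1.52 in glucose relative to the reference (adjusted p = 5.42e-05 and 0.00403, edgeR). Its difference between xylose and glucose was 1.30 (adjusted p = 0.00785, edgeR), and 1.12 without glucose library 1 (adjusted p = 0.0522, edgeR). The phosphogluconolactonase-like gene (CTHT_0025400) had 117, 90.1 and 135 CPM in the xylose libraries, against 30.2, 24.0 and 25.2 CPM in the glucose libraries and 18.4, 19.8 and 11.7 CPM in the reference libraries. It rose by 2.78 in xylose (adjusted p = 1.28e-05, edgeR). Its change in glucose was 0.67 (adjusted p = 0.0539, edgeR), which passed the test without xylose library 2 (0.67, adjusted p = 0.0418, edgeR) or reference library 2 (0.83, adjusted p = 0.0245, edgeR). It also passed with DESeq2 size factors (0.72), in the DESeq2 Wald test (0.72), with TMM scaled to xylose library 3 (0.87) or 1 (0.79), without the filter on low counts (0.88), with a minimum of 10 counts in each library (0.83) and with scaling without the 26S rRNA gene (0.79). Phosphogluconate dehydrogenase (CTHT_0060270) rose by 2.09 in xylose relative to the reference (adjusted p = 0.000518, edgeR) and was 1.64 higher in xylose than in glucose (adjusted p = 0.00328, edgeR). Its change in glucose was 0.45 (adjusted p = 0.317, edgeR).

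**Figure D4:**
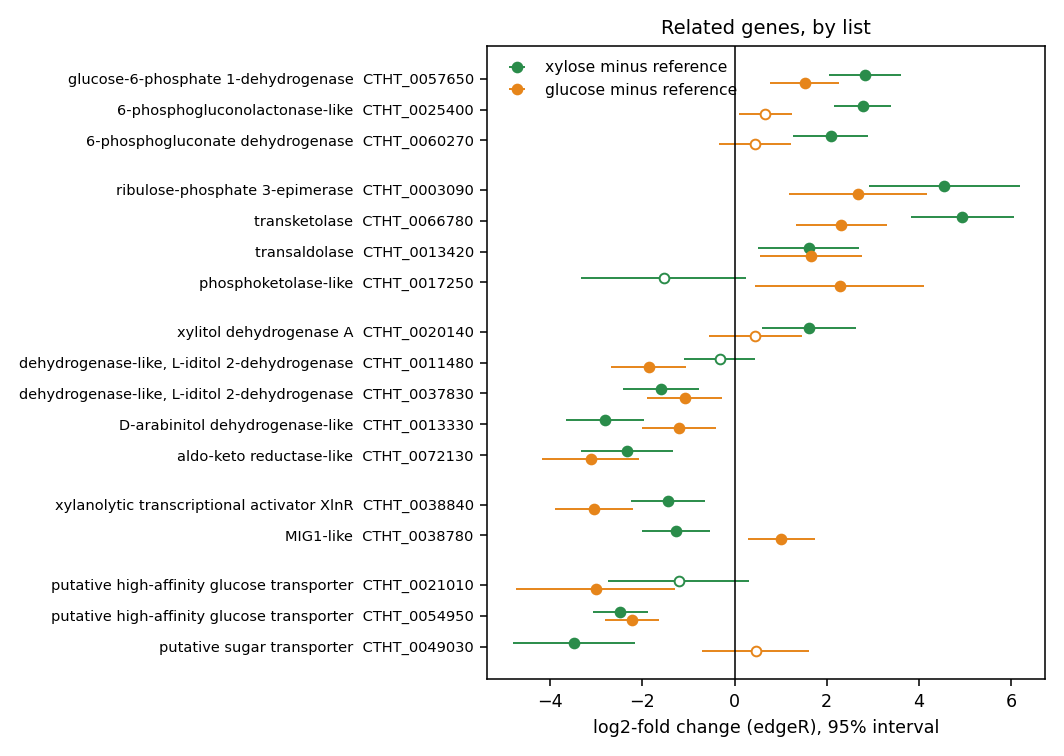
Log2-fold changes of 17 related genes for xylose minus reference and glucose minus reference, with 95% intervals from the edgeR fit, filled points marking genes that passed the test at an adjusted p under 0.05 and open points those that did not. The oxidative branch and transketolase lie above 0 for xylose minus reference (2.09 to 4.94), and the phosphoketolase-like gene lies on opposite sides of 0 for xylose (-1.54, open) and glucose (2.28, filled).

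Enzymes that act on similar polyols were also followed. Of 5 such genes, 1 was called higher and 3 lower for xylose minus reference, beside 32.3% and 32.4% of all genes tested. For glucose minus reference 4 were called lower, beside 25.4% of all genes, and for xylose minus glucose 1 was called higher and 1 lower, beside 28.2% and 22.6% of all genes. A further gene annotated as xylitol dehydrogenase A (CTHT_0020140) had a mean of 173 ± 77.6 CPM in xylose, against 77.0 ± 6.15 CPM in glucose and 56.4 ± 40.3 CPM in the reference (SD, n = 3 each). It rose by 1.62 in xylose (adjusted p = 0.00998, edgeR), and by 2.28 without reference library 2. Its change in glucose was 0.45 (adjusted p = 0.439, edgeR), and 1.22 without reference library 2 (adjusted p = 0.0174, edgeR). Xylose minus glucose was 1.17 (adjusted p = 0.0535, edgeR), and passed the test without reference library 2 (1.07) or 3 (1.17), with total counts alone (1.32), under the replicate block (1.01) and in a fit of xylose and glucose alone (1.01). A fall in glucose, as XDH had, was not detected in this gene. The dehydrogenase-like gene CTHT_0011480, which KEGG places with iditol dehydrogenase, a relative of XDH, had a mean of 7.49 ± 3.27 CPM in xylose, against 2.58 ± 0.232 CPM in glucose and 9.38 ± 3.04 CPM in the reference (SD, n = 3 each). It fell in glucose by 1.86 on the log2 scale relative to the reference (adjusted p = 0.00213, edgeR) and was 1.54 higher in xylose than in glucose (adjusted p = 0.00489, edgeR), while xylose minus reference was -0.33 (adjusted p = 0.437, edgeR). The other 3 genes, for a second iditol dehydrogenase-like enzyme, an arabinitol dehydrogenase-like enzyme and an aldo-keto reductase-like enzyme, were lower in both sugars than in the reference. In glucose that call was lost for the iditol dehydrogenase-like gene (CTHT_0037830, -1.08) without glucose library 1 (-0.66) or 2 (-1.14) or reference library 1 (-1.14) or 3 (-0.82). It was also lost with TMM scaled to xylose library 3 (-0.87) or 1 (-0.95), without the filter on low counts (-0.86), with a minimum of 10 counts in each library (-0.91), under the replicate block (-1.07) and with scaling without the 26S rRNA gene (-0.95). For the arabinitol dehydrogenase-like gene (CTHT_0013330, -1.21) the call in glucose was lost without glucose library 1 (-0.78) or 2 (-1.18) or reference library 2 (-0.90). The aldo-keto reductase-like gene (CTHT_0072130) averaged 0.903 CPM in xylose and 0.541 CPM in glucose, and its difference between them, 0.79, passed the test without glucose library 3 (1.44).

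The 2 regulators followed were called in every comparison. Of all genes tested, 64.6% were called for xylose minus reference, 49.5% for glucose minus reference and 50.8% for xylose minus glucose. The gene that KEGG assigns to XlnR (CTHT_0038840) had 53.2, 98.0 and 39.8 CPM in the xylose libraries, against 25.4, 22.6 and 14.5 CPM in the glucose libraries and 186, 128 and 205 CPM in the reference libraries. Its transcript had the order reference above xylose above glucose, with a log2-fold change of -1.45 for xylose minus reference (adjusted p = 0.00455, edgeR), -3.05 for glucose minus reference (adjusted p = 0.000158, edgeR) and 1.61 for xylose minus glucose (adjusted p = 0.0037, edgeR). Its lowest condition was that of XDH, glucose, but its highest was the reference. The MIG1-like gene (CTHT_0038780) had 67.1, 68.4 and 74.6 CPM in the xylose libraries, against 342, 355 and 320.2 CPM in the glucose libraries and 251, 93.4 and 161 CPM in the reference libraries. It was highest in glucose and lowest in xylose, with -2.28 for xylose minus glucose (adjusted p = 0.000338, edgeR) and -1.26 for xylose minus reference (adjusted p = 0.00621, edgeR). Glucose minus reference was 1.01 (adjusted p = 0.0263, edgeR), a call lost without glucose library 2 (0.98) or reference library 3 (0.98) and with scaling by total counts alone (0.91). These are transcript levels, and the activity of either protein was not measured. Of 3 sugar transporter genes, 2 were called lower for xylose minus reference, 2 for glucose minus reference and 1 for xylose minus glucose. In the same order, 32.4%, 25.4% and 22.6% of all genes were called lower. None of the 3 was called higher in any comparison, beside 32.3%, 24.0% and 28.2% of all genes. CTHT_0054950 was called lower than the reference both in xylose (-2.48) and in glucose (-2.23). CTHT_0049030 was called lower in xylose than in the reference (-3.49) and than in glucose (-3.95), but had only 18, 16 and 9 reads in the xylose libraries. The remaining gene (CTHT_0021010) was counted with 9, 3 and 14 reads in the glucose libraries and 58, 28 and 39 in the xylose libraries. In the reference libraries it had 176, 25 and 68 reads. Its level in glucose library 2, 0.0632 CPM, was at the limit of detection, so its fold changes rest on few reads. Its call in glucose, -3.02, was lost without glucose library 1 (-2.58), and a call in xylose was gained without reference library 2 (-1.74). Its difference between xylose and glucose, 1.80, passed the test without glucose library 3 (2.78) or reference library 2 (1.71). It also passed with total counts alone (2.10), in the DESeq2 Wald test (1.69) and under the replicate block (1.98).

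The genes next to each member in the RefSeq order of assembly CTHT_3.0 were taken, 2 on each side. Of these 12 genes, 11 were tested, since a tRNA gene beside XDH had no reads. None of the 11 was called higher for xylose minus reference, beside 32.3% of all genes tested, and 3 were called lower, a share near the 32.4% of all genes. One of these calls, that of CTHT_0022550 beside XK (-0.77), was lost without xylose library 3 (-0.61) or reference library 1 (-0.68) and with total counts alone (-0.65). Beside XR, the adjacent genes CTHT_0056940 and CTHT_0056960 rose in glucose by 1.34 and 1.59 (adjusted p = 0.00756 and 0.00317, edgeR), and their changes in xylose were 0.45 and 0.30 (adjusted p = 0.254 and 0.446, edgeR). They thus shared with XR the rise in glucose, called for 24.0% of all genes tested. They were lower in xylose than in glucose, with log2 differences of -0.89 and -1.29 (adjusted p = 0.0448 and 0.00803, edgeR). The second genes to each side did not rise in glucose. CTHT_0056930 changed by -0.05 and CTHT_0056970 by -0.63 (adjusted p = 0.923 and 0.0333, edgeR). The latter call was lost under several alternatives, among them total counts alone (-0.73) and TMM scaled to xylose library 3 (-0.43). The call of CTHT_0056940 between the sugars was lost without xylose library 1 (-0.85) or 3 (-0.78), glucose library 2 (-0.93) or 3 (-0.74) or reference library 1 (-0.89) and with total counts alone (-0.70). Beside XDH, CTHT_0073840, the second gene to one side, was lower in glucose than in the reference (-1.64, adjusted p = 0.000834, edgeR) and higher in xylose than in glucose (1.36, adjusted p = 0.00183, edgeR), as XDH was by larger amounts, while the second gene to the other side, CTHT_0073880, changed by 1.39 and -1.40 (adjusted p = 0.00568 and 0.00467, edgeR). The adjacent gene CTHT_0073870 was called in neither comparison, with 0.04 and -0.33 (adjusted p = 0.910 and 0.279, edgeR). Beside XK, 2 of 4 genes were called lower for xylose minus reference, beside 32.4% of all genes tested. For xylose minus glucose 2 were called lower and 1 higher, beside 22.6% and 28.2% of all genes. With the libraries scaled by total counts alone, none of these 3 calls between the sugars held. The higher one (CTHT_0022570, 0.70) was also lost without xylose library 1 (0.40) or 3 (0.71), any glucose library (0.69, 0.72 and 0.60) or reference library 2 (0.59) or 3 (0.70), and with each other scaling and filter tried and in a fit of xylose and glucose alone.

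**Figure D5:**
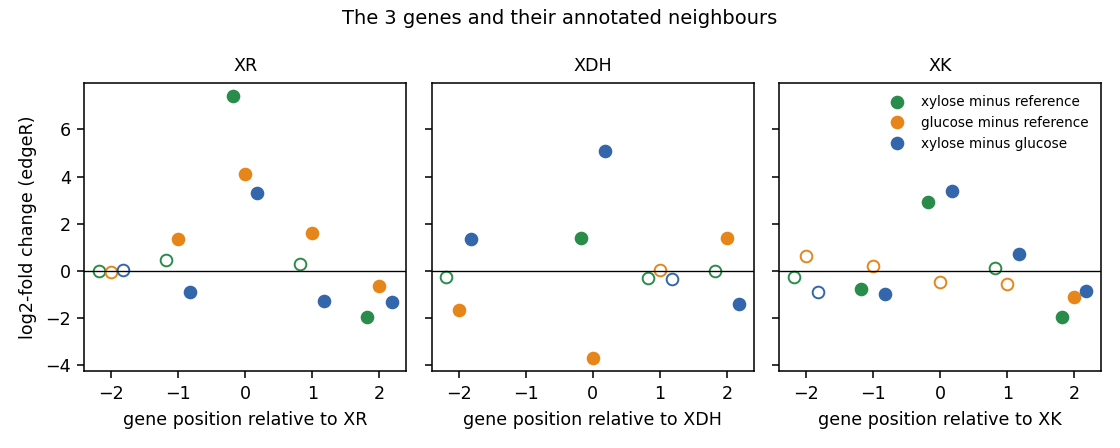
Log2-fold changes of XR, XDH and XK (position 0) and of the 2 annotated genes on each side, filled points marking genes that passed the edgeR test and open points those that did not. None of the 11 neighbours tested has a filled point above 0 for xylose minus reference, and the tRNA gene at position -1 of XDH has none because it had no reads.

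For each member, the 5 genes with the most similar pattern were those with the highest Pearson correlation of log2 CPM over the 9 libraries. This likeness takes no account of the size of a change, and the 9 points share 3 conditions, so that many genes score highly. XR was most like an adenylate kinase gene (CTHT_0005050, r = 0.998), an uncharacterized gene (CTHT_0073580, r = 0.996), a GMP synthase-like gene (CTHT_0036600, r = 0.994), CTHT_0003340 (r = 0.992) and a mitochondrial pyruvate carrier gene (CTHT_0072990, r = 0.992). All 5 had the order xylose above glucose above reference, with smaller changes than XR. The adenylate kinase gene, the nearest, had 254 ± 48.7 CPM in xylose, against 74.0 ± 3.08 CPM in glucose and 14.6 ± 4.20 CPM in the reference (SD, n = 3 each), which was 4.12 on the log2 scale for xylose minus reference where XR had 7.41.

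XDH was most like genes that changed far less. These were CTHT_0033650, which KEGG assigns to an exocyst component (r = 0.989), a nuclease-like gene (CTHT_0007290, r = 0.985), an alpha-mannosidase gene (CTHT_0016550, r = 0.977), CTHT_0031120, which KEGG assigns to a pseudouridine phosphatase (r = 0.971), and an RNA listed as ENSRNA049505860 (r = 0.970). CTHT_0033650 had 43.3 ± 3.48 CPM in xylose, against 18.2 ± 1.94 CPM in glucose and 34.1 ± 2.22 CPM in the reference (SD, n = 3 each). Between xylose and glucose it differed by 1.25 on the log2 scale where XDH differed by 5.10. XK was most like CTHT_0004820 (r = 0.989), an endoxylanase gene (CTHT_0042130, r = 0.989), a xylosidase-like gene (CTHT_0011440, r = 0.988), CTHT_0042730 (r = 0.988) and an isocitrate dehydrogenase subunit gene (CTHT_0055800, r = 0.987). Xylanases and xylosidases release xylose from plant cell wall xylan. The endoxylanase gene had 156 ± 69.4 CPM in xylose, against 12.1 ± 0.476 CPM in glucose and 19.1 ± 8.44 CPM in the reference (SD, n = 3 each), close to XK in the size of its changes, with 3.04 for xylose minus reference and 3.69 for xylose minus glucose. The xylosidase-like gene had 186 ± 22.9 CPM in xylose, against 4.24 ± 0.554 CPM in glucose and 7.12 ± 3.51 CPM in the reference (SD, n = 3 each), and its log2 differences were 4.70 and 5.45. Since all of these genes were picked for their likeness over the same libraries, their sharing a pattern with a member follows from the choice and is a description only.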

How the data were processed

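Transcripts of 9 wild-type cultures were measured by single-end sequencing of mRNA from a directional kit. According to the study's methods, the authors used Tophat2 to map the reads to the genome of Ensembl release 28 and summarizeOverlaps to count them, and the deposited values are raw read counts per gene. How strand and reads matching several genes were handled is not given in the sources used here, so reads of overlapping or near-identical genes may be shared. The tools were DESeq2 1.42.0, limma 3.58.1 and edgeR 4.0.16 in R 4.3.3. Conditions were compared by the quasi-likelihood test of edgeR in 1 model over all libraries with TMM scaling and filterByExpr (minimum count 10), with two-sided p-values adjusted by Benjamini-Hochberg over 6904 genes and a threshold of 0.05. Intervals of log2-fold changes are t intervals of that fit. Ratios used counts plus 0.5, and log2 CPM for pattern likeness a prior count of 2. Exact permutation tests over all conditions used the upper tail of the F statistic of the log2 ratio. Those of a pair of conditions used the difference of means and are two-sided. Limits on counts of 0 cover counting error only.

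The named genes are the 3 members, 17 related genes from the study's annotation, the 2 annotated genes on each side of a member and the 5 genes most like it. The members and the lists were chosen with earlier results of these data known. Of the genes listed, 7472 matched the RefSeq table of assembly CTHT_3.0, from which only gene order, type and span were taken. Alternatives were other scalings and filters, the DESeq2 Wald test, a replicate block, fits to the compared conditions alone, leaving out each library, other pseudocounts and, chosen after seeing the data, scaling without the 26S rRNA gene. The fit was also tested on simulated data with known changes in 200 genes, far fewer than were called here. That test does not show how the fit performs with as many changes as in these data.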

Additional observations from a re-analysis of the deposited data

How the results depend on the processing

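For the 9 log2-fold changes of XR, XDH and XK, each of 19 alternatives kept the direction and the side of the threshold (171 of 171 values). Leaving out single libraries gave 7.22 to 7.74 for XR, 1.03 to 1.63 for XDH and 2.72 to 3.04 for XK in xylose minus reference, 3.91 to 4.55, -3.76 to -3.53 and -0.64 to -0.23 in glucose minus reference, and 3.05 to 3.51, 4.72 to 5.33 and 3.17 to 3.55 in xylose minus glucose. For the other named genes, 82 log2-fold changes were followed in this way, which is a part of those tested. Of their 1550 values, 1446 kept direction and call, 75 lost the call, 26 gained it and 3 changed sign. The log2 ratio of XK over XR, xylose minus glucose, ranged from -0.38 to 0.40 when single libraries were left out, and transaldolase (CTHT_0013420) in the same comparison was 0.15 with total counts alone and -0.36 to 0.20 with single libraries left out. The causes were not tested.

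With TMM scaled to xylose library 3, glucose minus reference had 2011 genes higher and 1414 lower, against 1659 and 1757 in the main test, and the median of all genes moved to 0.16. For xylose minus glucose, with 1944 genes higher and 1560 lower in the main test, which direction held more genes depended on the scaling: 1656 were higher and 1777 lower with TMM scaled to xylose library 3, 1629 and 1792 with xylose library 1, and 1903 and 1179 with total counts alone. Per kb of gene span, percentiles were 98.3, 87.8 and 33.0 for XR, 96.4, 47.1 and 92.0 for XDH and 93.8, 60.6 and 68.4 for XK in xylose, glucose and reference. Coding lengths were not used here. The replicate block gave 4399, 3343 and 3374 calls, where the main test gave 4463, 3416 and 3504 for xylose minus reference, glucose minus reference and xylose minus glucose. Deviations of same-numbered libraries correlated between -0.28 and 0.29, and those of differently numbered libraries between -0.25 and 0.28. With 3 libraries per condition, these correlations cannot settle whether the numbers pair the cultures. Under the block the log2-fold change of XDH in xylose minus reference was 1.36.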
